A study of Homo sapiens with 4 samples.

Results

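The genes described here encode the enzymes that take apart introns and surplus RNA in human cells: the lariat debranching enzyme DBR1, the RNA exosome components EXOSC2, EXOSC3, EXOSC9, EXOSC10 and DIS3, the exosome-associated helicase SKIV2L2, the 5′ to 3′ exonucleases XRN1 and XRN2, and the nonsense-mediated decay helicase UPF1. They were measured in GIST-T1, a cell line from a human gastrointestinal stromal tumour (GIST), after introduction of a miR-335 mimic or of a negative control mimic. Members were chosen by gene name, with earlier results of these data known. Every non-control probe carrying any of the 10 names was kept, which gave 11 probes of the 50599 non-control probes on the array. The array carries 36337 gene names in all.

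The comparison asks how ectopic miR-335 affects the transcriptome of these cells. In all, 4 GIST-T1 samples were profiled, each on its own 1-colour oligonucleotide array: 2 samples had received 100 pmol of the miR-335 mimic by electroporation and 2 had received the same amount of mirVana miRNA mimic Negative Control #1. Total RNA was taken from all samples 48 h later, and 100 ng per sample was amplified and labelled. All samples come from 1 cell line, and nothing in the labels says whether the samples of a group were separate transfections, so the p-values measure the spread between these samples, which may be technical. The title and the transfection field of both mimic samples name miR-335, but an additional line of their description names a miR-34a mimic. The samples were grouped by the transfection field, and the conflict could not be settled from the sources used here.

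Splicing releases each intron as a lariat, a loop closed by a branched bond that DBR1 opens so that the intron can be degraded. The RNA exosome is a ring of noncatalytic subunits joined by the 3′ to 5′ nucleases DIS3 and EXOSC10, and in the nucleus it depends on the helicase SKIV2L2 to unwind and deliver its substrates. XRN2 degrades RNA from the 5′ end in the nucleus, XRN1 does so in the cytoplasm after removal of the cap, and UPF1 directs transcripts with premature stop codons into decay. Mature miRNAs act in the cytoplasm, where pairing through the seed (bases 2 to 8) recruits repressors to a target mRNA. The labels do not say which arm of the hairpin the mimic represents, so both RefSeq arms are shown, with the seed in capitals. In GRCh38.p14 they lie on the plus strand at chr7:130496126-130496148 and chr7:130496162-130496183.
hsa-miR-335-5p: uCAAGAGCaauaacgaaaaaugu
hsa-miR-335-3p: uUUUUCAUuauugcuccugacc

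Each member was read by a single 60-base probe, except EXOSC2, which had a pair of probes, here called upstream and downstream after their order along the transcript. All 11 probe accessions matched the RefSeq table to the expected gene, and SKIV2L2 is named MTREX there. For the 10 probes whose gene had an annotated strand, the probe lay on the strand of its gene. The following 4 probes are shown because they carry the largest positive differences (EXOSC2 upstream, EXOSC9) or read exons that are not adjacent in the genome (EXOSC10, XRN2). Their sequence is given in lower case throughout, since no part of it was marked.
EXOSC2 upstream: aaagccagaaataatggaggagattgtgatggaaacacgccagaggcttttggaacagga
EXOSC9: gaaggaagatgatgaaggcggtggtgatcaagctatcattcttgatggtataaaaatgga
EXOSC10: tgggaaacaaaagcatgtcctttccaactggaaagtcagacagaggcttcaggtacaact
XRN2: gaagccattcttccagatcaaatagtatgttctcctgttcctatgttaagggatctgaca

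In the hg19 coordinates of the array design these probes lie at chr9:133579095-133579154 on the plus strand, chr4:122735108-122735167 on the plus strand, chr1:11126789-11128107 on the minus strand and chr20:21337284-21338413 on the plus strand. The EXOSC10 coordinates span 1319 bases and the XRN2 coordinates 1130 bases for 60 bases of probe, so both probes cross an exon junction and read joined exons. The 7-letter complement of the miR-335-5p seed, GCTCTTG, was searched on the transcript strand and occurred in 0 of the 11 member probes and in 221 of all 50599 probes (0.437%). The complement of the miR-335-3p seed, ATGAAAA, occurred in 0 of the 11 and in 618 of all probes (1.22%). These counts concern the probes' own letters, and the 3′ untranslated regions of the members were not analysed here.

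Values are log2 signals from which the array's own 75th percentile was subtracted. Testing with limma required that the mimic pair, the control pair or both carry the scanner's well-above-background flag. Between 40.3% and 41.9% of probes were detected per array, the 75th percentile signal lay between 179 and 190, and no spot was saturated. All 4 arrays lay on 1 slide and were scanned together. All 5 GIST marker genes (KIT, ANO1, ETV1, PDGFRA and PRKCQ) were well above background on every array. The brightest probe of each lay below 0, KIT at -0.33 ± 0.037 (SE) with a limma adjusted p = 0.0512, whereas a dimmer ANO1 probe stood at 0.47 ± 0.054 with a limma adjusted p = 0.0533. Of 5 markers of other cell types, PTPRC, PECAM1 and ALB were well above background on none, whereas EPCAM (signal 42.6 to 123) and DES (237 to 300.05) were on all 4. EPCAM differed by -0.89 ± 0.42 (SE) and DES by -0.25 ± 0.078 on the log2 scale between mimic and control, with limma Benjamini-Hochberg adjusted p = 0.287 and adjusted p = 0.177, and the part of these in the results was not tested.

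None of the RNA decay members passed the test. Of the 10 tested member probes, covering 9 genes, 0 had a limma Benjamini-Hochberg adjusted p under 0.05, against 532 of all 20328 tested probes (2.62%). At an unadjusted p under 0.05, 1 member probe was higher (EXOSC2 upstream) and 0 were lower, whereas 11.7% of all tested probes were higher and 13.7% lower. No member differed by more than 1.5-fold, against 3.9% of all tested probes. The member differences ran from -0.11 for XRN1 to 0.18 for EXOSC2 upstream on the log2 scale.

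The member values were precise enough to bound the differences. Each of the 10 probes was flagged well above background by the scanner in every sample, and their standard errors ran from 0.039 to 0.072 on the log2 scale. The lowest lower bound of the 10 95% intervals was 0.802-fold (XRN1) and the highest upper bound was 1.23-fold (EXOSC2 upstream), so a 1.5-fold difference in either direction lay outside each interval. The median size of the difference, regardless of sign, was 0.055 among the members and 0.10 among all tested probes. The median gap between replicates was 0.051 for the mimic and 0.040 for the control among the members, beside 0.064 and 0.063 among all tested probes. With 2 arrays against 2, an exact two-sided permutation test of a single gene cannot give a p below 0.333.

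**Figure D1:**
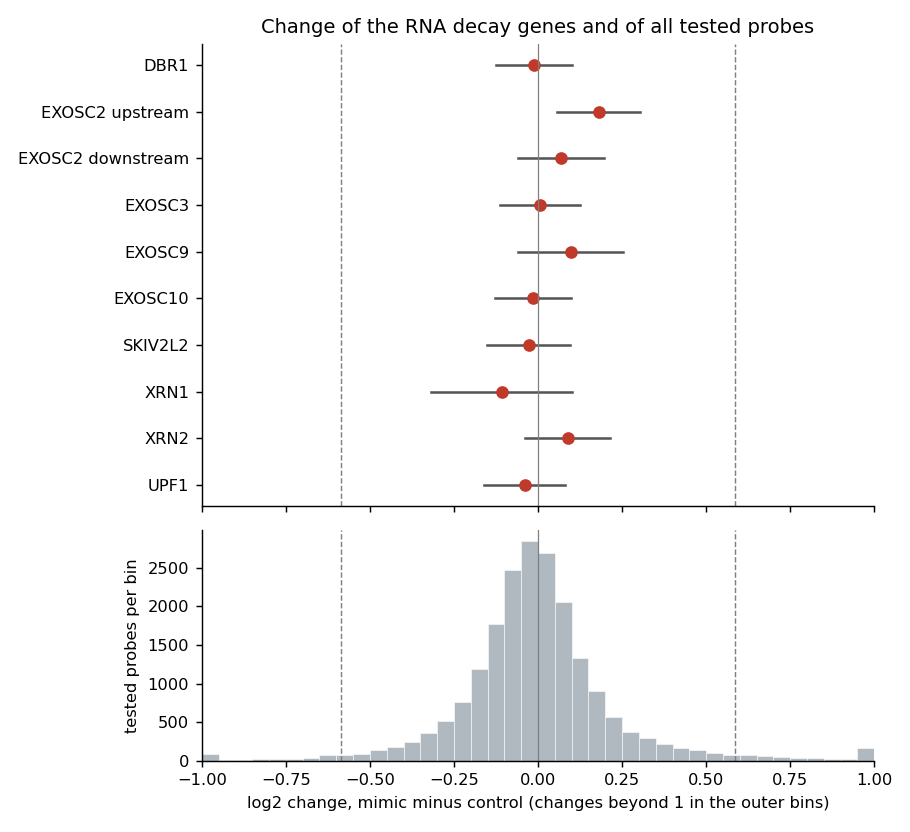
Upper panel, log2 difference (mimic minus control) of each tested member probe with its 95% limma interval. Lower panel, the number of all 20328 tested probes per bin of the same axis; dashed lines mark 1.5-fold, and all 10 member intervals lie between them.

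Under the main scaling, the tested member probes, with both EXOSC2 probes counted, were divided evenly about 0. The split moved with the scaling: 7 of the 10 lay above 0 with scaling to detected probes and 0 with scaling to spike-ins. Above 0 lay 5 probes and below it 5, with a median of -0.0028, and 46.2% of all tested probes were above 0, with a median of -0.014. In 4 member probes (both EXOSC2 probes, EXOSC9 and XRN2) both mimic arrays were above both control arrays, a pattern seen in 27.1% of all tested probes. In 1 (UPF1) both mimic arrays were below both controls, as in 32.5% of all tested probes. The arrays of the groups overlapped for DBR1, EXOSC3, EXOSC10, SKIV2L2 and XRN1.

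**Figure D2:**
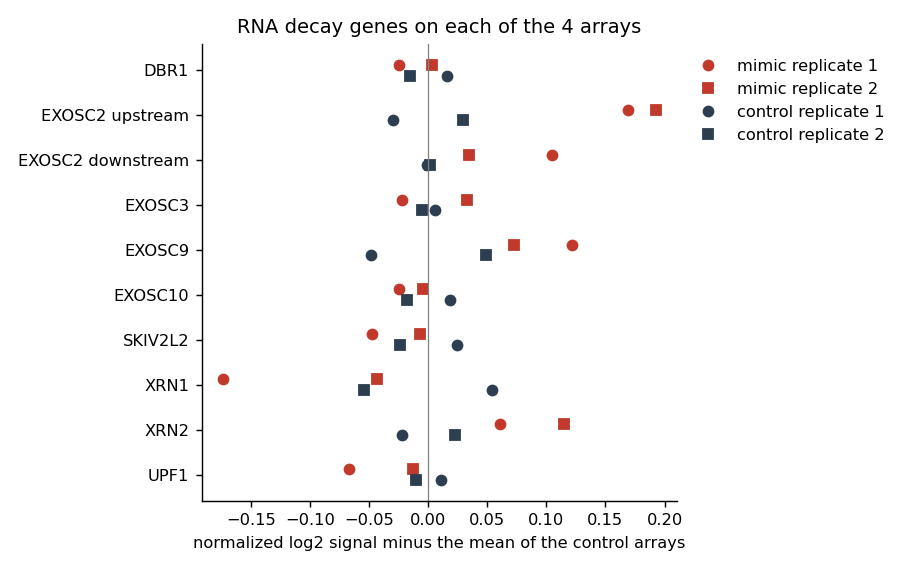
Normalized log2 signal of each tested member probe on each of the 4 arrays, after subtraction of that probe's mean over the control arrays (horizontal axis); red symbols are mimic arrays and dark symbols control arrays. The mimic arrays lie to the right of both control arrays for EXOSC2, EXOSC9 and XRN2.

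DBR1 is the only enzyme in the set that opens intron lariats. Its normalized log2 signal was 2.58 and 2.61 on the mimic arrays and 2.63 and 2.59 on the control arrays. The lowest and the highest of these values belonged to mimic replicate 1 and control replicate 1, and the other two lay between them. The difference was -0.011 ± 0.039 (SE, n = 2 per group; 95% interval -0.12 to 0.10), with a limma Benjamini-Hochberg adjusted p = 0.875. As many as 93.9% of all tested probes differed by more. The probe's listed hg19 coordinates, chr3:137879830-137879870 on the minus strand, cover 41 of its 60 bases.

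EXOSC2, a cap subunit that carries RNA-binding domains at the entry of the exosome ring, showed the largest difference among the members. Its upstream probe read 2.11 and 2.14 on the mimic arrays and 1.91 and 1.97 on the control arrays. Both mimic arrays were thus above both controls, by more than either group's replicates differed from each other. The difference was 0.18 ± 0.043 (SE; 95% interval 0.057 to 0.30), or 1.13-fold, with an unadjusted p = 0.0163 and an adjusted p = 0.124 by limma. Of all tested probes, 28.3% differed by more in either direction.

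The downstream EXOSC2 probe, at chr9:133580140-133580199 in hg19 on the plus strand, gave 0.97 and 0.90 with the mimic and 0.87 and 0.87 with the control. The mimic arrays were again the higher ones, and replicate 1 of the mimic stood furthest from the controls. The difference was 0.069 ± 0.044 (95% interval -0.058 to 0.20), with a limma adjusted p = 0.398. Both probes of the gene therefore had the same sign, and whether their differences were unequal was not tested.

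EXOSC3 is the other cap subunit among the members, and EXOSC9 belongs to the ring itself. The EXOSC3 probe (hg19 chr9:37780640-37780699, minus strand) read 1.76 and 1.81 with the mimic and 1.78 and 1.77 with the control. The mimic arrays enclosed the control arrays, and the difference of 0.0055 ± 0.041 (95% interval -0.11 to 0.12) was the smallest in size among the members. EXOSC9 read 4.92 and 4.87 with the mimic and 4.75 and 4.84 with the control. Both mimic arrays were above both controls, though control replicate 2 lay nearer to the mimic arrays than to its own replicate. The difference was 0.097 ± 0.054 (95% interval -0.059 to 0.25), or 1.07-fold, with a limma adjusted p = 0.348.

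EXOSC10 and DIS3 supply the nuclease activity of the nuclear exosome. EXOSC10 read 2.34 and 2.36 with the mimic and 2.38 and 2.35 with the control, and the groups overlapped. The difference was -0.014 ± 0.039 (95% interval -0.13 to 0.098), with a limma adjusted p = 0.838. DIS3 did not meet the detection filter: its probe (hg19 chr13:73330318-73330377, minus strand) was well above background only on mimic replicate 1. Its signal was 22.3 and 10.2 on the mimic arrays and 17.7 and 16.1 on the control arrays, so the mimic replicates were the lowest and the highest of the 4. Without the filter its log2 difference was -0.21 ± 0.44 (SE), with a limma adjusted p = 0.910, and with the filter relaxed to 1 array the limma adjusted p = 0.796. No fold is given, since the probe was well above background on no control array.

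SKIV2L2 feeds nuclear RNAs to the exosome as the helicase of its adaptor complexes. Its normalized log2 signal was 2.933 and 2.974 with the mimic and 3.005 and 2.957 with the control, and the groups overlapped. The difference was -0.027 ± 0.043 (95% interval -0.15 to 0.096), with a limma adjusted p = 0.718. The probe lies at chr5:54720638-54720697 in hg19 on the plus strand.

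The EXOSC3 and SKIV2L2 probes were each printed on 10 spots per array, which shows the measurement error within an array. The SD over the 10 spots was 0.041 to 0.065 for EXOSC3 and 0.059 to 0.084 for SKIV2L2 on the log2 scale. Every other member probe had 1 spot per array.

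**Figure D3:**
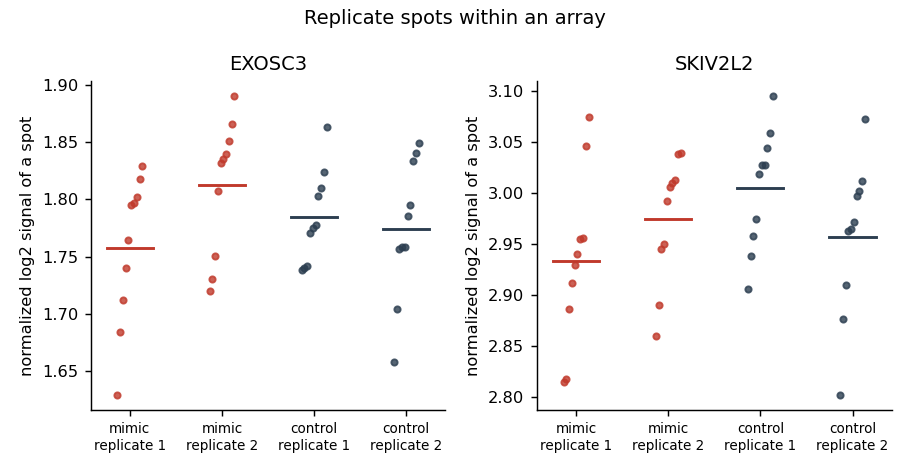
Normalized log2 signal (vertical axis) of each of the 10 spots of the EXOSC3 and SKIV2L2 probes on the 4 arrays; horizontal lines are array means. The spots of all 4 arrays overlap for both genes.

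The exonucleases XRN2 and XRN1 had differences of opposite sign, neither past the threshold. XRN2, which also helps to release RNA polymerase at the ends of genes, read 2.34 and 2.40 with the mimic and 2.26 and 2.30 with the control. Both mimic arrays were above both controls, and the difference was 0.088 ± 0.044 (95% interval -0.039 to 0.22), or 1.06-fold, with a limma adjusted p = 0.310. XRN1 (hg19 chr3:142025612-142025671, minus strand) read 1.68 and 1.81 with the mimic and 1.90 and 1.80 with the control. Mimic replicate 1 was the lowest and control replicate 1 the highest, while the replicates numbered 2 were nearly equal. The difference was -0.11 ± 0.072 (95% interval -0.32 to 0.10), with a limma adjusted p = 0.416, and its replicate gaps of 0.13 and 0.11 were the widest among the tested members.

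UPF1 is the only member of the nonsense-mediated decay pathway in the set. Its probe (hg19 chr19:18978975-18979034, plus strand) read 4.85 and 4.91 on the mimic arrays and 4.93 and 4.91 on the control arrays. Both mimic arrays were below both controls, mimic replicate 2 by a margin smaller than the gap between the control replicates. The difference was -0.040 ± 0.042 (95% interval -0.16 to 0.080), with a limma adjusted p = 0.586.

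The calls depended on how the arrays were scaled. After scaling to the 7 usable of 10 spike-in probes in place of the 75th percentile, every log2 difference fell by the same 0.18. The median of all tested probes moved from -0.014 to -0.20, and 9174 of the 20328 were called, 8668 of them lower. The member median then stood at -0.18, and 6 member probes were called lower (DBR1, EXOSC3, EXOSC10, SKIV2L2, XRN1 and UPF1), with log2 differences of -0.18 to -0.29. The 4 member probes that were not called also lay below 0, EXOSC2 upstream at -0.00093. The spike-in signal itself was 0.18 higher with the mimic on the log2 scale after scaling to the 75th percentile, and its source was not tested. With a variance prior that follows the mean signal, 1 member probe was called, EXOSC2 upstream, at an adjusted p = 0.0275 by limma, while 3083 probes were called in all.

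**Figure D4:**
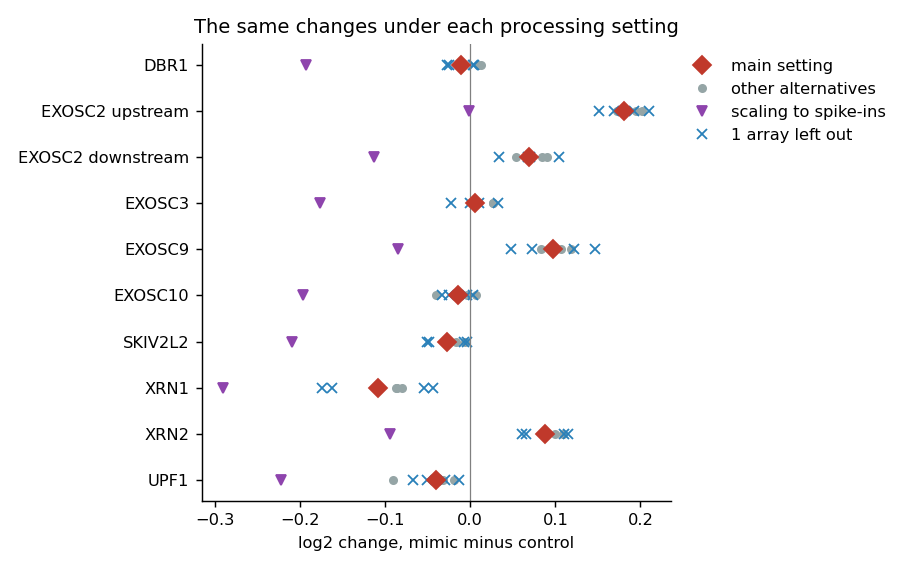
Log2 difference (mimic minus control, horizontal axis) of each tested member probe under the main setting (diamonds), spike-in scaling (triangles), omission of 1 array (crosses) and the other alternatives (dots). Spike-in scaling moves all 10 probes to the left by about the same amount.

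Other genes of RNA decay and known substrates of nonsense-mediated decay were examined as a wider set of 76 names. Of these, 71 were on the array and 70 were tested with 121 probes. The substrates supplied 31 of those probes, most of them reading a single gene. No probe of these lists passed the limma threshold, and the smallest adjusted p was 0.0588. At an unadjusted p under 0.05, 16 of the 121 probes were higher and 8 lower, beside 11.7% and 13.7% of all tested probes. Some genes, such as SMG1, supplied more than 1 of these probes. By the brightest probe of each gene, 8 of the 70 genes were higher and 4 lower at the same limit. The median over genes, taking the brightest probe of each, was 0.0078, with 41 of 70 genes above 0. Over all tested probes the median was -0.014, with 46.2% above 0. That background counts every probe and was not computed per gene, so the units are unlike.

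By role, the median differences lay close together. The 10 other exosome subunits and nucleases had a median of 0.025, the 10 tested nuclear exosome cofactors 0.019, and the 5 genes of intron lariat turnover -0.0024. The 4 genes listed with the SKI complex, the cytoplasmic counterpart of the nuclear helicase complexes, stood at 0.0068, and the 5 termination partners of XRN2 at -0.0064. The 17 decapping genes had a median of 0.0010, the 9 nonsense-mediated decay factors 0.030, and the 10 transcripts known as substrates of that pathway 0.027. None of these 8 lists had a probe past the adjusted threshold.

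**Figure D5:**
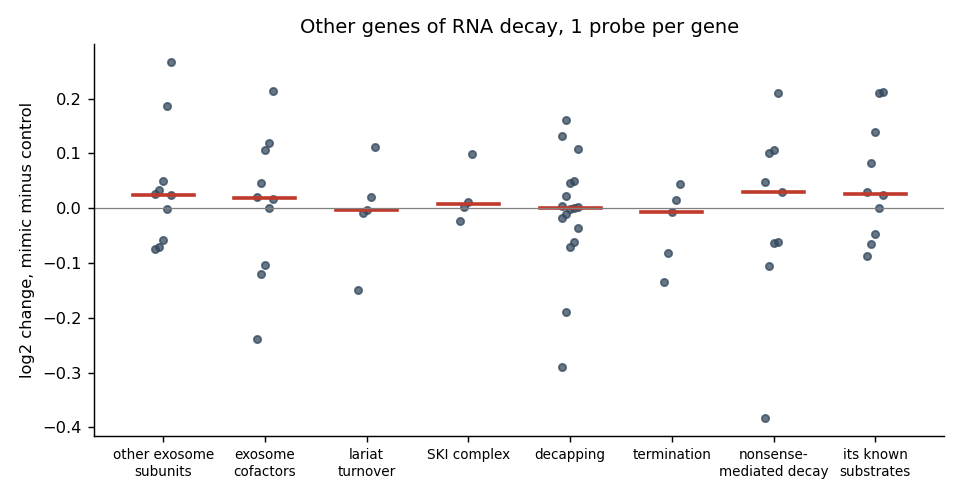
Log2 difference (mimic minus control, vertical axis) of the brightest tested probe of each gene in the 8 wider lists; red lines are list medians. The medians lie between -0.0064 and 0.030.

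LSM1 and ZCCHC7 were among the genes with the largest negative differences in the wider set, by the brightest probe of each gene. LSM1, a subunit of the ring that promotes decapping in the cytoplasm, read 3.79 and 3.79 against 4.09 and 4.07, a difference of -0.29 ± 0.036 (limma adjusted p = 0.0588). ZCCHC7, an RNA-binding cofactor of the nuclear exosome, differed by -0.24 ± 0.083 (limma adjusted p = 0.200), and its other probe by -0.21. The mimic arrays were below both controls for both genes, although neither passed the threshold.

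Among the brightest probes of each gene, the largest positive differences belonged to DIS3L2, SRRT and SNHG1, and some dimmer probes of other genes differed by more. DIS3L2, a cytoplasmic relative of DIS3, differed by 0.27 ± 0.11 (limma adjusted p = 0.246), but 1 of its 3 probes lay at -0.015. SRRT, a partner of the nuclear cap-binding complex, read 4.11 and 4.16 with the mimic and 3.94 and 3.90 with the control, a difference of 0.21 ± 0.042 (limma adjusted p = 0.102), and all 3 of its probes were above 0. SNHG1, a noncoding host of small nucleolar RNAs, differed by 0.21 ± 0.053 (limma adjusted p = 0.133). Beyond 1.5-fold there were 2 of the 121 probes, against the 3.9% of all tested probes, and both belonged to UPF2, a partner of UPF1 that is named here after its values were seen. They had opposite signs, at -0.76 ± 0.82 and 0.65 ± 0.17, with limma adjusted p = 0.601 and adjusted p = 0.144. The control replicates of the first probe lay far apart, at -2.22 and -0.14. The second read -2.43 and -2.45 with the mimic and -3.31 and -2.86 with the control, and was well above background on 3 arrays. The brightest UPF2 probe differed by -0.11 ± 0.039 (limma adjusted p = 0.215), and its remaining probes by -0.21 and 0.22.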

How the data were processed

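The 4 arrays (human SurePrint G3) held 2 samples per group. The authors extracted intensities with Feature Extraction (10.7 per the labels, 10.7.3.1 per the file headers); the deposited processed signal is background-subtracted intensity on a linear scale, and the deposited value table held these intensity values to within 1% for every probe compared. Outlier spots (356 to 395 per array) were left out, and signals were log2-transformed and then averaged over the spots of a probe. Each array's 75th percentile over the non-control probes was subtracted from these values. A probe counted as well above background when at least 0.5 of its spots carried that flag. The 20328 probes passing this on both arrays of a group were fitted with limma 3.58.1 (R 4.3.3) without a block, with Benjamini-Hochberg adjustment at 0.05; the code was tested on simulated data. Probe coordinates are those of the array design (hg19). No read depth applies, and the 4 arrays limit the precision.

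The members and gene lists were chosen with earlier results of these data known. The text names all members and, from the wider lists (1 probe per gene, the brightest), any called gene and the 3 largest differences in each direction, of which 1 is not reported here. Alternatives covered background correction, scaling, the value table, filters, variance priors, the methods' t-test, a replicate block and omission of each array. Figures were drawn with matplotlib 3.10.9. Nothing in the labels says whether replicate numbers pair the samples, and the main fit treated them as unpaired.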

Additional observations from a re-analysis of the deposited data

How the results depend on the processing

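With 2 arrays per group, counts of calls moved with the settings. Over all probes, the 532 calls (56.2% higher) became 1550 with normexp background correction, 9174 with spike-in scaling (5.52% higher) and 3083 with a trended variance prior (43.7% higher), and 0 without a filter (3627 at an unadjusted p under 0.05), with the filter relaxed to 1 array (4696), with the methods' t-test after adjustment (4115) and with the replicate block (4400). Leaving out 1 array gave 0 to 8 calls, the 8 without mimic replicate 2. The cause of these moves was not tested. Same-numbered replicates did not deviate together (Pearson correlation 0.0346 across probes), and the paired fit with the replicate block called 0 member probes.

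The member count of 0 became 6 of 10 probes with spike-in scaling and 1 with the trended prior, beside 9174 and 3083 of all 20328 tested probes. It was 0 without any 1 array, where the lone sample is assumed to vary like the other group and so few probes pass that the 0 does not speak to stability. The 0 calls among the 121 probes of the wider lists became 4 with normexp, 63 with spike-in scaling and 11 with the trended prior. The same settings called 1550, 9174 and 3083 of all 20328 tested probes. The member median of -0.0028 was 0.019 with quantile normalization, 0.018 with scaling to detected probes and -0.18 with spike-in scaling, and ran from -0.023 (without mimic replicate 2) to 0.018 (without mimic replicate 1), being 0.0077 without control replicate 1. No setting put a member beyond 1.5-fold.

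The sign turned for 3 members outside spike-in scaling. DBR1 was 0.012 with quantile normalization and 0.0095 with detected-probe scaling, and ran from -0.027 to 0.0046 over omitted arrays (0.0028 without mimic replicate 1). EXOSC10 was 0.0062 with detected-probe scaling and ran from -0.033 to 0.0036. EXOSC3 ran from -0.022 to 0.033. Spike-in scaling lowers every log2 difference by the same 0.18, which by construction put EXOSC3 at -0.18, XRN2 at -0.094, EXOSC9 at -0.085 and the EXOSC2 probes at -0.11 and -0.00093. The slide could not be fitted as a block, since all arrays share it.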
